A study of Caenorhabditis elegans with 6 samples.

Results

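Of the 2103 pseudogenes in the 22G-RNA counts, 407 carried a mean raw count of at least 20 over the 6 libraries, and these 407 loci are described here. They were selected on that mean and on the biotype pseudogene in the Ensembl annotation of WBcel235, so their abundance is a description and not a result. Another 909 pseudogenes had fewer counts, and 787 had none in any library. Relative to the typical locus (TMM scaling), 129 of the 406 tested pseudogenes gained 22G-RNAs in the lotr-1 mutants (31.8%, beside 18.8% of all tested loci) and 58 lost them (14.3%, beside 17.6%). Relative to the total counts of each library, 55 of the 406 gained and 126 lost them, beside 8.68% and 44.6% of all tested loci. As a group, the pseudogenes took 13.9% ± 0.0579 of all wild-type counts and 11.4% ± 0.505 of all mutant counts (SD, n = 3 each), a share that does not depend on how the libraries were scaled against each other.

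Pseudogenes are copies of genes that have lost an intact reading frame. In the C. elegans germline, RNA-dependent RNA polymerases use transcripts as templates for 22G-RNAs, antisense small RNAs that begin with a G and load Argonaute proteins. WAGO-class 22G-RNAs silence their targets, and pseudogenes and transposons are well-known targets of that class. LOTR-1 is a LOTUS and Tudor domain protein of the germ granules in which these small RNAs are made and amplified.

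Small RNAs were sequenced from whole gravid adults, washed off plates 63 hours after plating and treated with RppH, which lets 5′ triphosphate RNAs such as 22G-RNAs be cloned. The groups were the wild-type strain N2, with 3 libraries, and lotr-1 mutants, with 1 library for each of the alleles xf58 (strain RFK592), xf60 (RFK593) and xf61 (RFK594). The xf58 allele is a deletion that keeps the reading frame, and xf60 and xf61 are other partial deletions of the gene. Since each allele had 1 library, differences between alleles and differences between libraries cannot be told apart. In whole animals, fewer cells of a type and less RNA per cell cannot be told apart either. The counts cover small RNAs only, so the labelled stage was not checked against marker genes.

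Total 22G-RNA counts per library lay between 3706296 and 4520488. The scaling factors of the TMM method, which assumes that most loci keep their level, were 1.35 to 1.39 in wild-type but 0.657 to 0.843 in the mutants. A given raw count therefore stood for a higher normalized level in a mutant library. With total counts in place of TMM, the median log2 fold change of all tested loci moved by -0.90. Changes below are on the TMM scale, relative to the typical locus, and values on total counts are given beside the main ones where the direction of a described change differed. 22G-RNA counts on lotr-1 itself were 245, 293 and 275 in the N2 libraries, and 88 in xf58, 20 in xf60 and 47 in xf61 (log2 fold change -1.48 ± 0.40 (SE), edgeR adjusted p = 0.018). These are small RNAs on the gene, not its mRNA.

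Compared with protein-coding genes, the pseudogenes were short and densely covered. Their median exon length was 975 bp, against 1535 bp for the 7215 tested protein-coding genes with a mean of at least 20 counts. Their median wild-type level was 159 normalized counts per kb of exon, against 57.2 for those protein-coding genes. The 44 lincRNAs that reached the same mean were shorter still, with a median of 517.5 bp, and more densely covered, with 328 normalized counts per kb. Of all pseudogenes in the files, 19.4% reached a mean of 20 counts, while 36.6% of the protein-coding genes did. Abundance was uneven, since the 10 most abundant pseudogenes held 37.7% of the counts on the 407 loci, and 84 had a mean of at least 1000. Replicates were tight in wild-type, with a median coefficient of variation of 7.41%, and less so among the mutant alleles, with 20.4%. No genome or pseudogene sequence was used here, so the loci are given by name, position and count.

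On the TMM scale, 31.8% of the tested pseudogenes gained 22G-RNAs (129 loci), compared with 18.8% of all 9285 tested loci. A further 14.3% lost them (58 loci), compared with 17.6% of all tested loci, and 219 were not called. Calls required more than a 2-fold change and, in edgeR's quasi-likelihood test, a Benjamini-Hochberg adjusted p below 0.1. The median log2 fold change of the pseudogenes was 0.46, with quartiles at -0.27 and 1.24, beside 0.01 for all tested loci and -0.06 for the protein-coding genes with a mean of at least 20. Among those protein-coding genes 16.5% were called up and 18.4% down. With total counts the medians were -0.44 for the pseudogenes and -0.88 for all tested loci. On that scale 55 pseudogenes were called up and 126 down, beside 8.68% and 44.6% of all tested loci. The distance between the pseudogenes and all tested loci was thus 0.45 with TMM and 0.44 with total counts, while the sign of the pseudogenes' own median depended on the scaling. Called in both scalings were 55 risen and 58 fallen loci.

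The groups were also compared library by library. All 3 mutant libraries lay above all 3 wild-type libraries at 209 pseudogenes (51.5%), where 29.7% of all tested loci did so. At 92 pseudogenes (22.7%) all 3 mutant libraries lay below, where 32.2% of all tested loci did so, and the groups overlapped at the remaining 105. Leaving out each library in turn, 109 of the risen and 46 of the fallen pseudogenes stayed called in all of these fits. The library whose removal cost the most calls was xf60, with 18 of 187 calls lost.

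**Figure D1:**
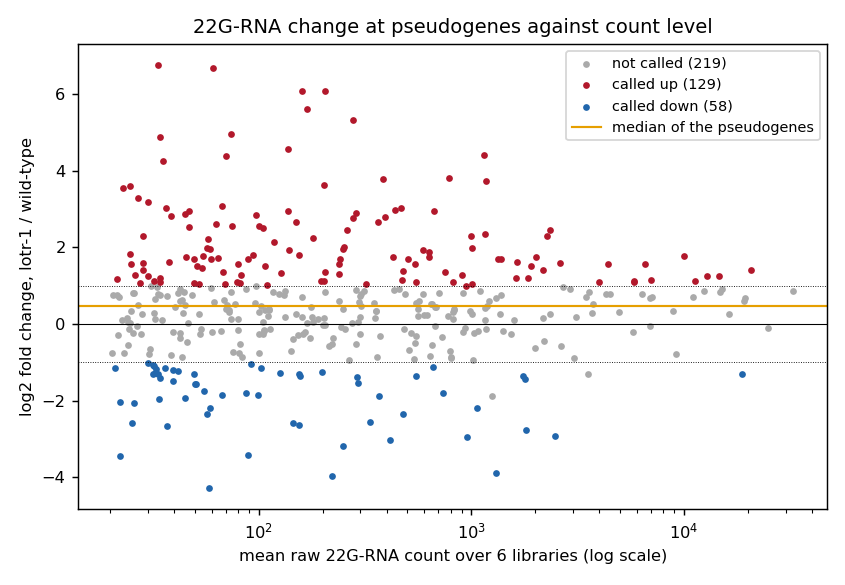
Log2 fold change of 22G-RNA counts between lotr-1 and wild-type (TMM scale) against the mean raw count over 6 libraries, 1 point per tested pseudogene. Red points were called up (129), blue points called down (58) and grey points not called (219); dotted lines mark a 2-fold change and the orange line the median of 0.46. Risen loci occur at every count level, while fallen loci thin out among the most abundant ones.

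The selection on a mean over both groups left its mark on the least abundant loci. A wild-type mean under 20 was found for 22 pseudogenes, which entered only through their mutant counts, and all 21 of them that were tested were called up. A mutant mean under 20 was found for 47, of which 30 were called down. A locus that entered through 1 group alone was selected partly for its difference, so these loci are a description and no support for a change. Among the 338 pseudogenes with a mean of at least 20 in both groups, 108 were called up and 28 down, and the median was 0.56 (-0.33 with total counts). By count level, 28 of the tested loci with a mean from 20 to 50 rose and 21 fell. Among the 84 with a mean of at least 1000, 27 rose and 7 fell. At the threshold itself, C03B8.2 on chromosome III entered with 44, 27 and 23 counts in wild-type and 12, 8 and 9 in the mutants, and F46A8.2 on chromosome I with 26, 22 and 18 against 12, 21 and 25. Just outside it were trpl-1, with 29, 24 and 14 against 18, 11 and 23, and Y47H10A.6, with 24, 28 and 26 against 20, 10 and 11.

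The most abundant pseudogenes moved in different directions. F37H8.2, at II:11171743-11175479, was the most abundant, with wild-type raw counts of 34819, 36979 and 29848 and mutant counts of 26488 (xf58), 33803 (xf60) and 34100 (xf61). After normalization the wild-type libraries averaged 25720 ± 1046 and the mutant libraries 46363 ± 8926 (SD, n = 3 each). The normalized groups did not overlap, but the change (0.85 ± 0.17 (SE), edgeR adjusted p = 0.0049) stayed under 2-fold and turned to -0.07 with total counts.

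Y17D7C.3, at V:18720589-18723771, was called down, alone among the 5 pseudogenes with the most wild-type counts. It had 28809, 33352 and 30512 counts in wild-type and 6172, 6793 and 6431 in the mutants. All 3 alleles lay below wild-type on either scale, with a log2 fold change of -1.31 ± 0.14 (SE, edgeR adjusted p = 0.00035) and -2.22 with total counts. By contrast, Y37H9A.2, at I:13779779-13781402, rose from 17220, 19271 and 15888 counts to 22133, 26768 and 22719. Its normalized groups did not overlap (log2 fold change 1.41 ± 0.16 (SE), edgeR adjusted p = 0.00043), and the change was 0.50, no longer past 2-fold, with total counts.

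Y39E4B.14, at III:13162475-13164864, fell in raw counts from 34056, 36360 and 29699 to 16077, 15096 and 17000. After TMM scaling its levels were 25340 ± 811 and 23500 ± 1099 (SD, n = 3 each), and it was not called (-0.11 ± 0.11 (SE), edgeR adjusted p = 0.45). With total counts the same locus fell by 1.01 and was called down. The cysteinyl-tRNA synthetase-named pseudogene cars-2 (chromosome I), K08B4.5 (IV) and F22H10.5 (X) behaved like F37H8.2. Their log2 fold changes were 0.61, 0.68 and 0.84 with TMM, short of 2-fold, and -0.29, -0.22 and -0.06 with total counts.

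Some abundant loci changed little relative to the typical locus and were not called. Y59H11AR.6, at IV:8597762-8598727, had normalized levels of 6959 ± 378 in wild-type and 6772 ± 1192 in the mutants (SD, n = 3 each), and the groups overlapped. B0391.10, at V:15585067-15593185, had 6006 ± 193 and 5195 ± 290 (SD, n = 3 each), with a log2 fold change of -0.21 (edgeR adjusted p = 0.18). Its groups did not overlap, and with total counts it was called down, with a log2 fold change of -1.10. Each of these loci overlaps an exon on the opposite strand.

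**Figure D2:**
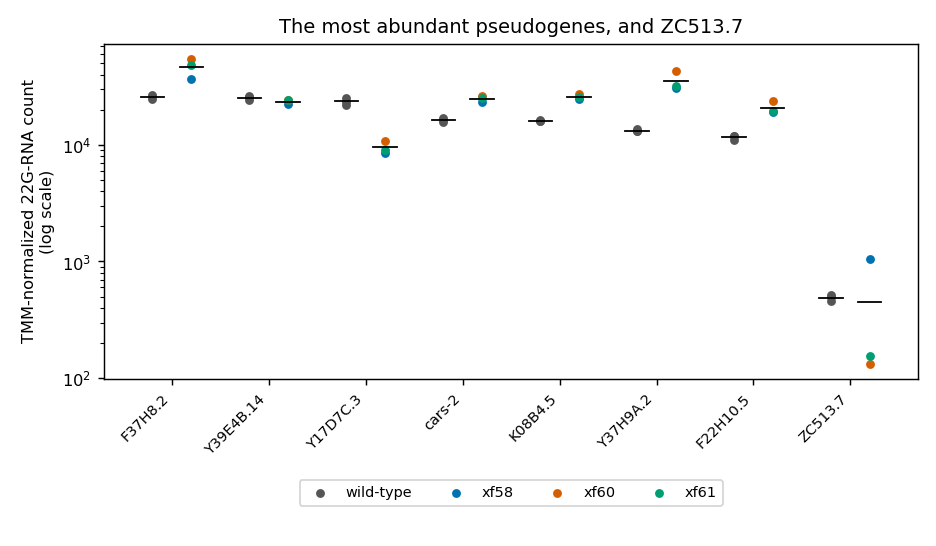
TMM-normalized 22G-RNA counts (log axis) of the most abundant pseudogenes overall and per chromosome, and of ZC513.7, in the wild-type libraries (grey) and in xf58, xf60 and xf61 (coloured); black bars are group means, n = 3. Y17D7C.3 is lower in every mutant library, and ZC513.7 is high in xf58 and low in xf60 and xf61.

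The strongest gains were at loci with few wild-type counts. Among pseudogenes with a mean of at least 100 counts, Y92H12BR.4, at I:1427227-1433695, held only 12, 11 and 11 wild-type counts but 126 in xf58, 531 in xf60 and 539 in xf61. Its normalized level went from 8.65 ± 0.806 to 596 ± 368 (SD, n = 3 each), a log2 fold change of 6.09. With a wild-type mean under 20, it was among the loci that entered the set through their mutant counts, as were fbxa-168 and C25D7.2, and no test is given for these. The mutants were all above wild-type, with xf58 the lowest of them.

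fbxa-168, at II:13645781-13648850, is a relic of an F-box gene, the family of substrate adaptors of SCF ubiquitin ligases. It went from 15, 14 and 10 counts to 93, 427 and 451, again with xf58 the lowest (log2 fold change 5.60). It overlaps an exon on the same strand, so its counts may be split with that gene. C25D7.2, at V:15037795-15038835, went from 11, 9 and 6 counts to 29, 235 and 668 (log2 fold change 6.08). The spread among the alleles was widest here, although xf58 too lay above every wild-type library.

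Next to it lies C25D7.14, at V:15034380-15035420, which has the same exon length of 886 bp. It held 3, 5 and 1 counts in wild-type and 7, 59 and 189 in the mutants, the same order of alleles. It was the only one of the 407 pseudogenes not tested. Reads that match both loci equally well cannot be told apart.

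Other gains were even across the alleles. Y102A5C.5, at V:16928328-16928999, went from 18, 24 and 34 counts to 446, 549 and 595 (5.32 ± 0.32 (SE), edgeR adjusted p = 2.9e-05). Y73F8A.37, at IV:15521488-15522118, went from 15, 22 and 24 to 210, 251 and 298 (4.57 ± 0.26 (SE), edgeR adjusted p = 2.6e-05). F53H1.2, at IV:1335896-1336434, had more wild-type counts, 176, 229 and 174, and reached 1635, 2281 and 2395 (4.41 ± 0.24 (SE), edgeR adjusted p = 2.3e-05). At these loci the groups were far apart, and the rise remained with total counts (4.40, 3.66 and 3.48).

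The losses reached similar depth. fbxa-46, another F-box pseudogene, at X:1981900-1984833, fell from 394, 499 and 387 counts to 10, 19 and 13 (log2 fold change -3.96); its mutant mean was under 20, so it entered through its wild-type counts and no test is given. F52G3.3, at X:16944858-16948026, fell from 2423, 2736 and 2389 to 75, 87 and 104 (-3.88 ± 0.19 (SE), edgeR adjusted p = 1.8e-05). At both loci every mutant library lay far below every wild-type library. F52G3.3 overlaps its same-strand neighbour F52G3.4, which also fell, from 585, 661 and 596 to 54, 53 and 55.

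oac-60, named after O-acyltransferases, at V:4481100-4481546, fell from 475, 478 and 465 counts to 26, 23 and 33 (-3.17 ± 0.17 (SE), edgeR adjusted p = 2.3e-05). T08B6.2, at IV:4894370-4897043, fell from 795, 882 and 659 to 56, 52 and 39 (-3.03 ± 0.20 (SE), edgeR adjusted p = 3.8e-05). The alleles lay closer together at these loci than at Y92H12BR.4, fbxa-168 and C25D7.2. Their log2 values ran from -3.25 to -2.89 at oac-60 and from -3.37 to -2.79 at T08B6.2. A pair of neighbours on chromosome IV was also even across the alleles. Y24F12A.3, at IV:11608900-11610910, went from 1699, 1899 and 1777 counts to 129, 113 and 121, and Y24F12A.4, at IV:11616121-11617984, from 4468, 4738 and 4672 to 323, 327 and 294. Their log2 fold changes were -2.95 ± 0.14 and -2.93 ± 0.16 (SE).

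**Figure D3:**
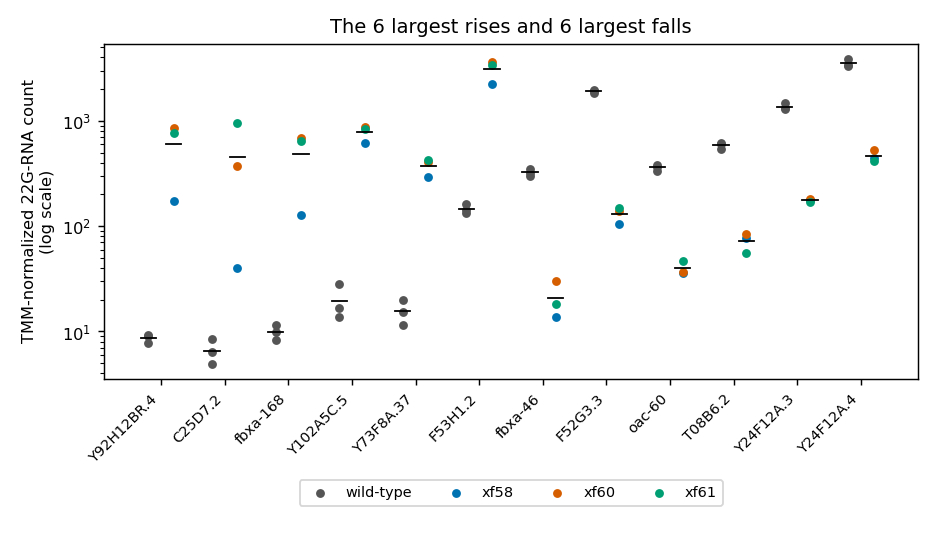
TMM-normalized 22G-RNA counts (log axis) of the 6 pseudogenes with the largest rise and the 6 with the largest fall among called loci whose mean count reached 100 and with groups that do not overlap; wild-type libraries in grey, xf58, xf60 and xf61 coloured, black bars group means, n = 3. Among the rises, xf58 is the lowest mutant library at each locus, most clearly at Y92H12BR.4, C25D7.2 and fbxa-168. Those named loci entered the set through their mutant counts and are no support for an order of the alleles.

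The alleles were compared with the mean of the wild-type libraries one at a time, without a test, since each had 1 library. In xf58, 118 pseudogenes were more than 2-fold above wild-type (29.1%, against 17.3% of all tested loci) and 48 more than 2-fold below (11.8%, against 13.2%). In xf60 the numbers were 130 above (32.02%, against 19.0%) and 71 below (17.5%, against 22.6%). In xf61 they were 136 above (33.5%, against 19.4%) and 69 below (17.0%, against 22.2%). The medians for xf58, xf60 and xf61 were 0.40, 0.44 and 0.55 with TMM, and -0.27, -0.60 and -0.39 with total counts. On the TMM scale each allele thus had a larger share of pseudogenes above wild-type, and a smaller share below, than of all tested loci.

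Among the 187 called pseudogenes, xf58 had the smallest change of the alleles at 111 (59.4%), xf60 at 45 (24.1%) and xf61 at 31 (16.6%). Over all 3380 called loci the shares were 62.4%, 21.5% and 16.1%, in the same order. On the log2 scale, the called loci had median changes in their called direction of 1.52 (xf58), 1.83 (xf60) and 1.87 (xf61). All alleles passed 2-fold at 126 of the 187. Some loci ran the other way: hsf-2, named after heat shock factors, had wild-type counts of 17, 23 and 15, but 164 in xf58 beside 27 in xf60 and 35 in xf61. cest-15, a carboxylesterase-named pseudogene, had 24, 21 and 10 against 172, 29 and 13, and its call was lost without wild-type replicate 3. Both had a wild-type mean under 20, so they entered through their mutant counts and are no support for an order of the alleles. Both were named after their values were seen.

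ZC513.7, at V:8039469-8040387, was the only pseudogene at which, on the TMM scale, xf58 moved by more than 2-fold one way and both other alleles by more than 2-fold the other way. It had 600, 729 and 607 counts in wild-type, 762 in xf58, 83 in xf60 and 109 in xf61. Against the wild-type mean the log2 values were 1.10, -1.86 and -1.65 with TMM, and 0.41, -2.91 and -2.59 with total counts, where xf58 stayed short of 2-fold. The locus overlaps an exon on the opposite strand. Averaged over the alleles it did not pass the test (-0.13 ± 0.74 (SE), edgeR adjusted p = 0.90).

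The pseudogenes were spread unevenly over the chromosomes. Chromosome I had 71 of its 188 annotated pseudogenes in the set (37.8%) and X 61 of 174 (35.1%). Chromosomes II with 76 of 326 (23.3%), III with 39 of 175 (22.3%) and IV with 66 of 379 (17.4%) followed. Chromosome V had the most annotated pseudogenes, 861, and the lowest share in the set, 94 (10.9%). Within the chromosomes, 74.4% of the 407 lay within the outermost 25% of the chromosome at either end, as did 68.2% of all pseudogenes and 44.4% of the protein-coding genes with a mean of at least 20.

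With TMM, gains outnumbered losses on every chromosome except III. On chromosome I, 28 pseudogenes were called up and 10 down (median 0.76), where 14.1% of the protein-coding genes with a mean of at least 20 were called up and 18.6% down (median -0.09). On IV, 26 were called up and 6 down (median 0.64), beside 15.3% and 18.7% of the protein-coding genes (median -0.06). On V, 31 of 93 tested were called up and 10 down (median 0.56), beside 19.3% and 16.2% (median -0.02). On II, 21 were called up and 12 down (median 0.53), beside 16.5% and 18.1% (median -0.07). These autosomes shared a pseudogene median above that of their protein-coding genes.

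On chromosomes III and X the medians lay close together. On III, 5 pseudogenes were called up and 9 down, with a median of -0.19, beside 12.9% and 19.96% of the protein-coding genes and a median of -0.17. On X, 18 were called up and 11 down with a median of 0.35, and the protein-coding genes of X had 28.3% up, 17.7% down and a median of 0.29 (-0.62 with total counts). With total counts all 6 pseudogene medians were below 0, from -1.10 on III to -0.15 on I. The differences between chromosomes were not tested.

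The division of the pseudogene counts among chromosomes differed between the groups. Pseudogenes of chromosome III held 11.2% to 11.3% of the counts on the 407 loci in wild-type and 6.25% to 6.93% in the mutants. Y39E4B.14 alone held 51.7% of the chromosome III counts. Pseudogenes of V went from 16.0% to 16.4% in wild-type down to 12.5% to 13.4%, and those of I from 18.7% to 18.9% up to 21.3% to 22.2%. Those of II went from 22.8% to 23.2% up to 24.02% to 25.03%, and those of IV from 17.1% to 17.5% up to 19.4% to 19.8%. On X, the libraries had 13.06%, 13.61% and 13.62% in wild-type and 13.64%, 15.36% and 14.44% in the mutants. The groups lay apart on all 6 chromosomes, on X by a narrow margin. These are shares of the counts on the 407 loci. As shares of all counts in a library, the pseudogenes of I went from 2.60% to 2.64% in wild-type to 2.397% to 2.61% in the mutants, those of II from 3.17% to 3.24% to 2.64% to 2.97%, and those of IV from 2.38% to 2.44% to 2.17% to 2.33%. Those of X went from 1.82% to 1.91% in wild-type to 1.62% to 1.69% in the mutants.

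**Figure D4:**
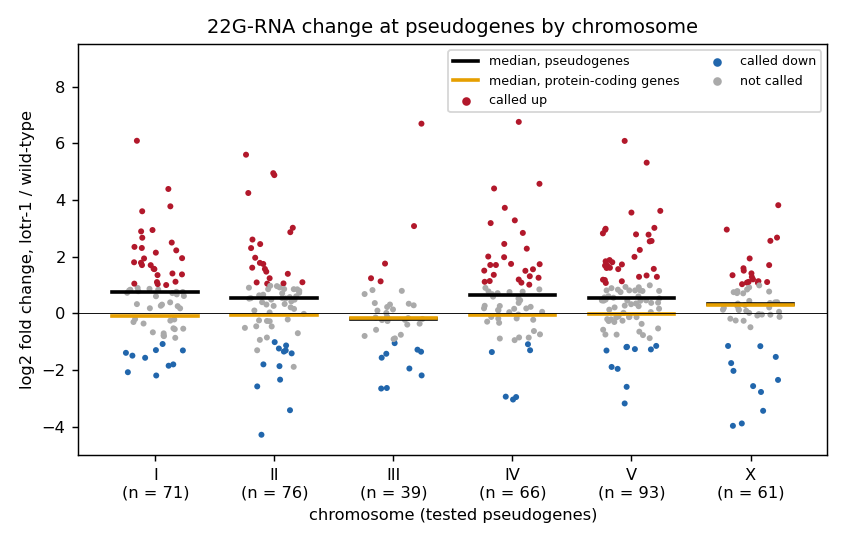
Log2 fold change of 22G-RNA counts between lotr-1 and wild-type (TMM scale) for the tested pseudogenes of each chromosome, 1 point per pseudogene, spread sideways at random. Black lines are the medians of the pseudogenes and orange lines those of protein-coding genes with a mean of at least 20 counts; the lines are apart on I, II, IV and V and close on III and X.

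Many of the pseudogenes lay close to one another. Within 10 kb, 103 neighbouring pairs joined 163 of the 407 loci. Both partners were called in 23 pairs, in the same direction in 21 (16 up, 5 down) and in opposite directions in 2. Since 187 of the 406 tested pseudogenes were called, pairs with both partners called also arise without any link. No comparison with distant pairs was made, so these numbers are a description. On chromosome I, Y71A12B.13, Y71A12B.14 and Y71A12B.19 rose together, with log2 fold changes of 2.89, 2.50 and 2.31. On the same chromosome fbxa-124, fbxa-122 and fbxa-123 fell together, by 2.19, 1.49 and 1.08, all of them with mutant means under 20, although the call for fbxa-123 was lost in 4 of the 6 fits that left out a library.

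The AC8 group on X held both directions. AC8.7 (X:230433-231365) and AC8.12 (X:239849-240781) have the same exon length of 744 bp, and their counts differed by at most 3.39% in any library. AC8.7 had 5433, 6094 and 4991 counts in wild-type and 4984, 6842 and 6478 in the mutants, and both were called up (1.11 each), a call lost without xf60. Nearby, AC8.6 fell from 40, 45 and 34 counts to 8, 5 and 2. The mutant mean of AC8.6 was under 20, so it entered through its wild-type counts and is no support for a fall. Since the counting put reads that fit several places equally well at 1 of them by chance, reads of AC8.7 and AC8.12 cannot be told apart if the loci match in sequence, which was not tested. Neighbours and near copies are not independent of each other.

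Names drawn from Ensembl, or from RefSeq where Ensembl had none, gave a gene symbol to 84 of the 407 pseudogenes. The other 323 had a sequence name only. F-box pseudogenes were the largest named family, with 33 of the 69 in the files (47.8%), close to the 43.1% of protein-coding F-box genes that reached a mean of 20. Chemoreceptor pseudogenes were nearly absent, with 1 of 318 (srx-70), and 2.57% of the protein-coding chemoreceptor genes reached that mean. MATH and BTB domain pseudogenes, relics of adaptors of CUL-3 ubiquitin ligases, had 11 of 24 in the set, and C-type lectins, carbohydrate-binding proteins, 3 of 25. None of the 14 nuclear hormone receptor pseudogenes and none of the 6 named for sperm proteins was in the set.

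F-box pseudogenes moved in both directions: 12 were called up (36.4%, beside 18.8% of all tested loci) and 8 down (24.2%, beside 17.6%). The other 13 were not called, and the median log2 fold change was 0.61 (-0.29 with total counts). Among 160 tested protein-coding F-box genes, 52 were called up (32.5%) and 19 down (11.9%), with a median of 0.41 (-0.47 with total counts). All 8 fallen pseudogenes were of the fbxa class, in which 8 others rose, while 3 of the 4 fbxc and 1 of the 2 fbxb pseudogenes rose and none fell. Among the fallen, fbxa-46, fbxa-122, fbxa-123 and fbxa-124 had mutant means under 20 and entered through their wild-type counts. Among the risen, fbxa-168 entered through its mutant counts. With few fbxb and fbxc members as well, these calls are no support for a difference between the classes. The most abundant was fbxa-203, at I:3371769-3373834, with 7285, 7794 and 6533 counts in wild-type and 11297, 13023 and 14272 in the mutants. Its mutant libraries were higher on either scale (1.79 ± 0.15 (SE), edgeR adjusted p = 0.00011; 0.88, short of 2-fold, with total counts). fbxa-93 rose further, from 103, 92 and 89 counts to 625, 635 and 770.

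**Figure D5:**
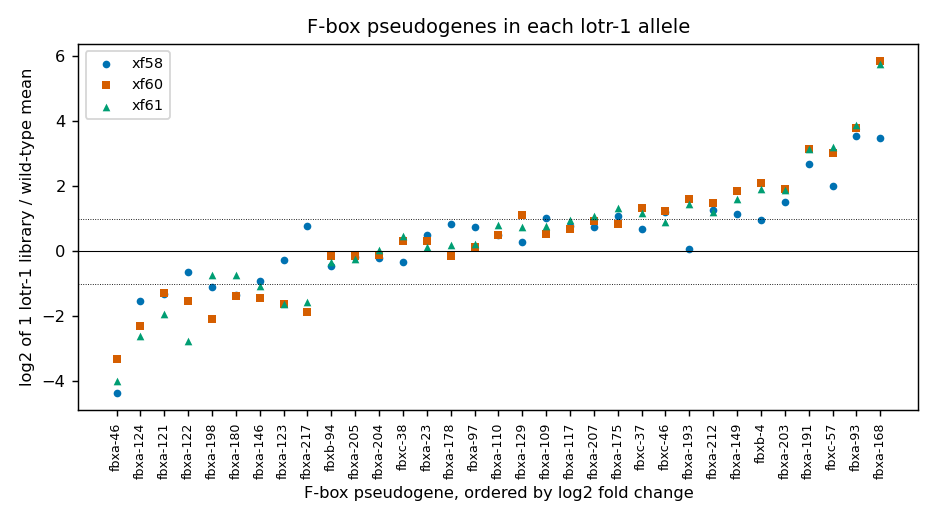
Log2 ratio of each mutant library (xf58 circles, xf60 squares, xf61 triangles) to the mean of 3 wild-type libraries for the 33 F-box pseudogenes, ordered by their log2 fold change, with a prior count of 2; dotted lines mark a 2-fold change. The family runs from fbxa-46, below -3 in every allele, to fbxa-168, above 3 in every allele.

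In the MATH and BTB family 3 pseudogenes rose (27.3%, beside 18.8% of all tested loci), 1 fell (9.09%, beside 17.6%) and 7 were not called, with a median of -0.01 (-0.90 with total counts), and 12 of 46 tested protein-coding members rose and 6 fell. The most abundant, bath-11, at II:1913605-1916376, had 3131, 3049 and 2694 counts in wild-type and 2441, 2901 and 3282 in the mutants. Its change of 0.91 with TMM was short of 2-fold and became -0.01 with total counts. btb-1 was the fallen member, from 80, 88 and 69 counts to 13, 6 and 13. Its mutant mean was under 20, so it entered through its wild-type counts and is no support for a fall. Of the C-type lectins, clec-236 rose, clec-69 fell, and clec-237, the most abundant, with 159, 136 and 124 counts against 88, 31 and 65, was not called. The mutant mean of clec-69 was also under 20, so its fall is no support for a change.

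A few pseudogenes with telling names were looked up after values were seen. wago-2, an Argonaute pseudogene, had 761, 799 and 729 counts in wild-type and 324, 187 and 248 in the mutants; it was not called, because the change of -0.66 stayed under 2-fold (edgeR adjusted p = 0.018). prg-2, a Piwi-type copy, had 343, 364 and 346 against 186, 246 and 322 (0.46, edgeR adjusted p = 0.12; -0.46 with total counts). drh-2, a Dicer-related helicase copy, had 47, 80 and 51 against 34, 22 and 23 (-0.22, edgeR adjusted p = 0.47). None of these relics of small RNA genes was called on the TMM scale. In raw counts, each was lower in every mutant library than in any wild-type library.

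Other named loci were called. puf-4, a relic from the PUF family of RNA-binding proteins, rose from 1199, 1274 and 1177 counts to 3406, 3694 and 3231 (2.45 ± 0.16 (SE), edgeR adjusted p = 3.5e-05). asna-2, a copy of a tail-anchored protein targeting ATPase, fell from 3321, 3817 and 2876 to 293, 197 and 277. At both loci the mutant libraries lay on 1 side of wild-type.

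Genes of the 22G-RNA pathway were looked up as 22G-RNA targets on the same scale. Of 28 listed genes 26 were matched and tested, and the unmatched rde-3 and wago-3 are other names of mut-2 and ppw-2. pid-4 was called up with TMM but not with total counts, and lotr-1, the nucleotidyltransferase gene mut-2, the endonuclease gene rde-8 and the helicase gene smut-1 were called down. These calls, 1 up and 4 down, compare with 18.8% and 17.6% of all tested loci. The other 21 were not called, and the median log2 fold change was 0.13, or -0.78 with total counts.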

How the data were processed

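The authors trimmed the reads with cutadapt 2.4, mapped them to WBcel235 with Bowtie 1.2.2, and counted 22G-RNAs with featureCounts 1.6.2 and Ensembl release 96. Their 22G-RNAs are 22-base reads starting with G, antisense to exons or transposons. A read with several equally good locations was given 1 at random. The deposited values are whole-number raw counts per locus and library, without normalization. Biotypes, positions and gene names came here from Ensembl release 115, with RefSeq symbols where Ensembl had no name. RefSeq matched 405 of the 407 pseudogenes. In the files, 171 genes are not in that Ensembl release and have no biotype here.

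In R 4.3.3, edgeR 4.0.16 scaled the counts with TMM, dropped low loci with filterByExpr and ran its quasi-likelihood test, with the 3 alleles as replicates of the lotr-1 group, as in the study's methods. Calls needed a Benjamini-Hochberg adjusted p under 0.1 over all 9285 tested loci and a change over 2-fold. Normalized counts are scaled to the mean effective library size. Changes of 1 allele used a prior count of 2. The p-values measure the spread between these libraries. Nothing in the labels says that the wild-type libraries came from separate cultures, so their spread may be technical. The mutant libraries came from different strains, 1 per allele. In their spread, differences between alleles and differences between libraries cannot be told apart. The counts set the precision of each library.

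Alternatives were DESeq2 1.42.0, other scalings and filters, other member thresholds, a replicate block and leaving out each library. The pseudogenes, families, gene list and alternatives were chosen with earlier results of these data known. Named loci are lotr-1; the 5 pseudogenes with the most wild-type counts; the 6 largest and 6 smallest changes among called loci with a mean of at least 100 and no overlap; the most abundant per chromosome; those with xf58 opposite to the other alleles; the 3 most abundant uncalled loci with a log2 change under 0.25; those at the threshold; and the most abundant of each family with 3 or more. Any other was named after its values were seen. Among chemoreceptor prefixes, srp, srl and srf were left out, as they name other genes. Sequence content and closest relatives were not analysed here.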

Additional observations from a re-analysis of the deposited data

Results flagged for a closer look

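ZC513.7 was picked out because its alleles moved in opposite directions: its log2 change from the wild-type mean came to 1.10 for xf58, -1.86 for xf60 and -1.65 for xf61 on the TMM scale. With total counts these were 0.41, -2.91 and -2.59, so that xf58 stayed short of 2-fold. With 1 library per allele the difference was not tested. No other of the 407 pseudogenes moved by more than 2-fold one way in xf58 and the other way in both other alleles.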

How the results depend on the processing

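The scaling of the libraries had the largest effect. With total counts, 55 pseudogenes were called up and 126 down, beside 8.68% and 44.6% of all tested loci, and the median was -0.44. On that scale the change of F37H8.2 turned to -0.068, of cars-2 to -0.29, of K08B4.5 to -0.22 and of F22H10.5 to -0.061. That of bath-11 turned to -0.007, of F46A8.2 to -0.15, of trpl-1 to -0.32 and of Y47H10A.6 to -0.87. Edge cases near 0 turned under other settings: Y59H11AR.6 to 0.0102 with TMM factors from protein-coding genes, and Y47H10A.6 to -0.0867 with the DESeq2 Wald test, -0.13 without a count filter and -0.0136 with the replicate block. The median was 0.37 with the DESeq2 Wald test and 0.31 without a count filter, and edgeR's test against a 2-fold change left 37 falls. Among the 250 pseudogenes with a mean of at least 100, 77 rose and 26 fell, beside 18.8% and 17.6% of all tested loci. With a raw mean of at least 20 in both groups, a cut chosen after seeing the data and stricter on the mutants with TMM, 28 fell. The median was then 0.56. Without transposon families in the total, pseudogenes took 15.5% of wild-type counts and 13.2% of mutant counts; without the most abundant pseudogene these were 13.1% and 10.6%. The cause was not tested for any of these.

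Leaving out 1 library gave 122 to 134 rises, 53 to 69 falls and medians from 0.43 to 0.48. Over these fits the log2 fold change ranged from -1.77 to 0.30 for ZC513.7, from -0.15 to 0.0879 for Y59H11AR.6, from -0.33 to 0.17 for Y47H10A.6 and from -0.57 to 0.0022 for clec-237. The replicate numbers did not pair the samples (correlations of deviations 0.0083, 0.034 and -0.034); with the replicate block, 126 rose, 61 fell and the median was 0.45. Of the other values of named loci, 421 kept their direction and call, 7 gained a call and 3 lost it. The alternative that needed a genome, pseudogenes whose 22-base windows occur 1 time, was not run. With 1 library per allele, differences between alleles have no replicate check.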
